A study of Mus musculus with 384 samples.

Results

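The 9 genes described here, of 31617 in the count table, carry the Nodal signal from ligand to nucleus in early mouse pluripotent cells. They were taken by gene symbol and not by their values, though with earlier results of these data known. The 9 were Nodal, Tdgf1, Acvr1b, Acvr2a, Acvr2b, Smad2, Smad3, Smad7 and Foxh1. All 9 were found in the table and all 9 passed the filter on low counts. The study derived formative stem (FS) cells, and its single-cell part compared them, and how uniform they are, with epiblast stem cells. Single cells of 4 mouse lines were sorted into plates for Smart-seq2, which copies full-length mRNA and carries no molecular identifiers. The FS cell lines 5ar1 and 5ar2 (condition Formative) were kept in AloXR, which holds 3 ng/ml activin A, the tankyrase inhibitor XAV939 and the retinoic acid receptor inverse agonist BMS493. Epiblast stem cells (EpiSCs, condition Primed) were the line AFX6, in medium with 20 ng/ml activin A, Fgf2 and XAV939, and the line AF32, in medium with 20 ng/ml activin A and Fgf2 alone. All 4 lines thus received activin and none was without it. Fgf2 was only in the EpiSC media and BMS493 only in the FS medium. The state of the cells cannot be told apart from the dose of activin, from Fgf2 or from BMS493.

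Nodal is a secreted ligand of the TGF-beta family that keeps the epiblast pluripotent and later directs formation of the primitive streak. It binds type II and type I activin receptors only together with an EGF-CFC co-receptor, of which Tdgf1 (Cripto) is the one of the epiblast, whereas activin uses the same receptors without it. The receptors phosphorylate Smad2 and Smad3, which enter the nucleus and act on DNA with partners such as Foxh1, while Smad7 blocks the receptors and the Lefty proteins block Nodal.

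Levels are given as CPM, the counts of a gene per 1000000 counts, either in 1 cell or in the summed counts of the kept cells of a line. Of 384 cells, 326 had at least 3000000 counts and were kept, with 90 cells each of 5ar1 and 5ar2, 66 of AFX6 and 80 of AF32. Their depth was 3022666 to 6686007 counts per cell, and the median number of detected genes was 11371 and 11567.5 in the FS lines against 10328 and 10330.5 in AFX6 and AF32. Cells of 1 line are not replicates, so FS cells and EpiSCs were compared over 2 lines against 2. The labelled cell type was checked on 8 epiblast markers, whose summed level was 4200, 3180, 2396 and 2027 CPM in 5ar1, 5ar2, AFX6 and AF32, with no marker at 0 in a line. Single cells varied: the median cell summed to 4198, 3229, 2268 and 2063 CPM, but the lowest to 18.3, 129, 754 and 7.28 CPM. Pou5f1 alone stood at 644, 490, 529 and 533 CPM. The 5 naive markers in the table summed to 1.9 to 5.2 CPM and the 4 neural markers to 3.05 to 9.52 CPM. Visceral endoderm markers summed to 0.984 to 2.9 CPM. Primitive streak and mesendoderm markers, Eomes and T among them, summed to 62.1, 52.4, 7.88 and 54.7 CPM. Eomes made up 61.3 and 48.2 CPM of the sums of 5ar1 and 5ar2, where T stood at only 0.144 and 0.179 CPM. The median cell summed to 45.4, 29.3, 0.231 and 0.252 CPM, so the sum of AF32 came from few cells, 1 of them at 2395. Trophoblast markers summed to 1.1 to 6.3 CPM except in 5ar1, at 25.6, of which Hand1 made up 23.5, and fibroblast markers to 7.08 to 14.0 CPM except in 5ar2, at 40.9, with 1 cell at 2604. The part of these cells in the results was not tested.

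Nodal and Tdgf1 stood far lower in FS cells than in EpiSCs, whereas the estimated differences of the receptors, Smad2, Smad3 and Foxh1 were 1.5-fold or less, with 95% intervals reaching at most 3.32-fold (Acvr1b). Nodal was 13.3-fold and Tdgf1 34.9-fold lower in the FS lines. With 2 lines a side the edgeR quasi-likelihood test was Benjamini-Hochberg adjusted over 22606 genes. It called 0 genes higher (0%) and 0 lower (0%) in FS cells, so none of the 9 was called. In simulated data at the estimated dispersion of 0.653 it recovered 0 of 200 changed genes. There all genes shared the same dispersion, and the changes, 2 or 3 on the log2 scale, were smaller than those of Nodal and Tdgf1. A count of 0 calls is therefore no sign of equal levels. At an unadjusted p under 0.05 the same test listed 9.06% of all genes as higher and 7.02% as lower, 3636 in all. Of the 9 genes, 3 were among the lower ones (Nodal, Tdgf1 and Smad7), and 0 of 9 among the higher. DESeq2, run as an alternative, called 13.1% of genes in either direction, and these 3 of the 9.

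Nodal, the ligand, stood at 5.46 and 5.32 CPM in the FS lines 5ar1 and 5ar2, at 49.0 CPM in AFX6 and at 94.7 CPM in AF32. Both FS lines lay below both EpiSC lines, an order that 21.5% of all genes tested shared. The FS lines had a mean of 5.39 ± 0.0989 CPM (SD, n = 2), whereas AF32 held 1.9 times the level of AFX6, for a mean of 71.9 ± 32 CPM (SD, n = 2). The log2 fold change, FS minus EpiSC, was -3.74 (SE 0.40, 95% interval -4.83 to -2.64), the 27th smallest p of the 22606 genes, with an adjusted p of 0.190 in edgeR. DESeq2 gave an adjusted p of 1.72e-15 for the same comparison.

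In single cells Nodal was close to an on or off measure, a trait not particular to it among the 9. Only 1 to 3 cells of each line lay between 1 and 10 CPM of Nodal. Smad2 had 4, 5, 1 and 5 such cells in 5ar1, 5ar2, AFX6 and AF32, while Acvr2b had more, 8, 10, 11 and 10. Cells with at least 10 CPM of Nodal numbered 14 of 90 and 13 of 90 in the FS lines, 42 of 66 in AFX6 and 61 of 80 in AF32. As shares these were 15.6% (exact Clopper-Pearson 95% interval 8.77 to 24.7), 14.4% (7.92 to 23.4), 63.6% (50.9 to 75.1) and 76.2% (65.4 to 85.1). The intervals cover counting error only, here and below, and not mRNA lost before sequencing. A cell at 0 is therefore not shown to lack the gene, and the part of such loss was not tested. The median cell was at 0 CPM in both FS lines, at 39.6 in AFX6 and at 78.7 in AF32, and the highest cell was at 90.4, 66.2, 254 and 429 CPM. FS cells over 10 CPM had a median of 30.8 and 29.7 CPM, and such EpiSCs one of 64.8 (AFX6) and 99.7 CPM (AF32), so both the number of such cells and their level were lower. The 10 highest cells carried 86% and 83.4% of all Nodal of 5ar1 and 5ar2, and 43.5% and 35.3% of that of AFX6 and AF32. Of FS cells, 5 of 180 exceeded the median EpiSC of 53.8 CPM. In AF32, 18 of 80 cells had raised expression from chromosome 10, where Nodal lies, and without all cells of that kind the log2 fold change was -3.59.

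**Figure D1:**
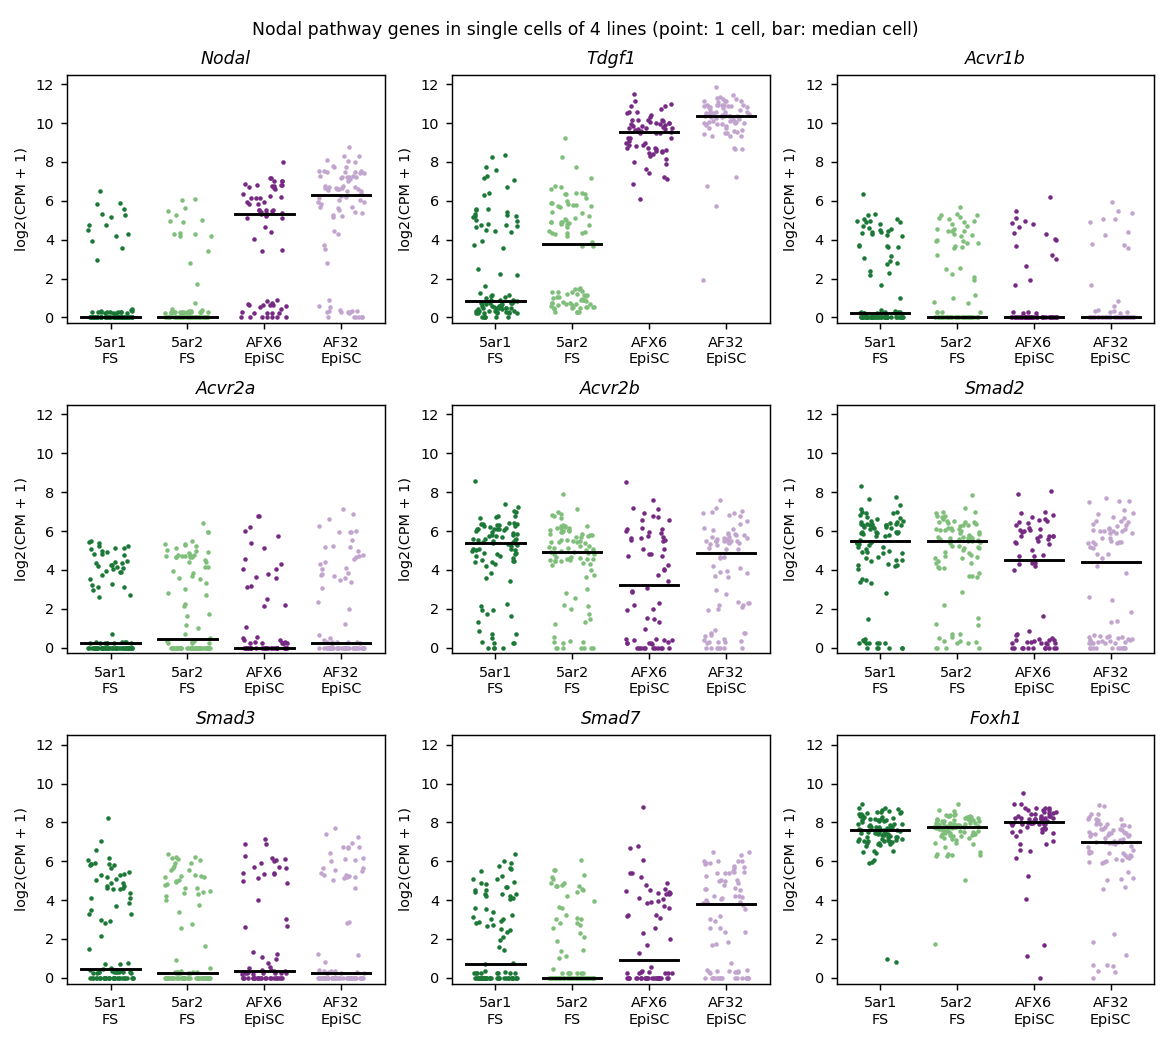
Level of each of the 9 genes in every kept cell, as log2(CPM + 1) on the vertical axis, by line (5ar1 and 5ar2, FS; AFX6 and AF32, EpiSC); each point is 1 cell and each bar the median cell. Nodal splits into cells near 0 and cells above 10 CPM in all 4 lines, Tdgf1 lies high in nearly every EpiSC, and Foxh1 is high in nearly every cell of each line.

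Tdgf1, the co-receptor had the largest difference of the 9. Its level was 27.4 and 36.7 CPM in 5ar1 and 5ar2, and 839 and 1398 CPM in AFX6 and AF32. The lines of the groups did not overlap, and the gap between the groups was far wider than that between the lines of 1 group, which was 1.3-fold for FS and 1.7-fold for EpiSCs. The log2 fold change was -5.12 (SE 0.37, 95% interval -6.14 to -4.11), the 4th smallest p of all genes, with an adjusted p of 0.190 in edgeR, 6.02e-37 in DESeq2 and 0.0457 in limma. Tdgf1 was the 1 gene, of 14149 tested (0.00707%), that limma called.

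Unlike Nodal, Tdgf1 was present in nearly every EpiSC. All 66 AFX6 cells and 79 of 80 AF32 cells had at least 10 CPM, against 32 of 90 cells of 5ar1 and 47 of 90 of 5ar2. The lowest, median and highest cell were at 0, 0.813 and 328 CPM in 5ar1 and at 0.198, 12.9 and 611 in 5ar2. In AFX6 they were at 67.5, 757 and 2885, and in AF32 at 2.8, 1310 and 3776. No FS cell (0 of 180) reached the median EpiSC of 1031 CPM, while 36 of 146 EpiSCs lay at or below the highest FS cell. FS cells divided into a lower set around or below 1 CPM and an upper set, whose median among cells over 10 CPM was 37.3 CPM in 5ar1 and 40.0 in 5ar2. A count of at least 1 was recorded in 93.3% of 5ar1 and 100% of 5ar2 cells, a share that counts many cells below 1 CPM. As a scale for such low values, 4 Y-linked genes summed to 0.569 CPM in AFX6, or 0.290% of what the other 3 lines held on average. That share of the mean Tdgf1 of the other lines would amount to 2.2 CPM in either FS line. The part of such reads in the low values was not tested.

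A processed copy, Tdgf1-ps1, was listed at 0.617, 0.931, 20.5 and 31.9 CPM in 5ar1, 5ar2, AFX6 and AF32. This was 2.3% to 2.5% of Tdgf1 in each line. Only uniquely mapped reads were tallied, so reads that match both equally well are in neither count.

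Because Nodal and Tdgf1 were the pair of the 9 that stood furthest below the EpiSC lines, the 250 bases before their RefSeq start sites are shown (GRCm38.p6, chr10:61417722-61417971, plus strand, and chr9:110946159-110946408, minus strand, each read 5′ to 3′ along the gene). Capitals mark the SMAD box CAGAC or its reverse complement GTCTG, searched on both strands.

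Nodal: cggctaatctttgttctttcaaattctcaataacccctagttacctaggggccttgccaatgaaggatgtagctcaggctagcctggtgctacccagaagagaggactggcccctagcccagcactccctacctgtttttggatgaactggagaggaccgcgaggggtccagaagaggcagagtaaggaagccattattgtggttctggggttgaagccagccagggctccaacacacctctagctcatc

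Tdgf1: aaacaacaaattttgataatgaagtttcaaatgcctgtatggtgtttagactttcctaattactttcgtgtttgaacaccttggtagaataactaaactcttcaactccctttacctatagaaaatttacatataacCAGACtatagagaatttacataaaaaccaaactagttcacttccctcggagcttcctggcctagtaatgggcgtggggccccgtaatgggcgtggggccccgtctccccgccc

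The Tdgf1 window held 1 SMAD box, 113 to 109 bases before the start, and the Nodal window held 0. The windows of Acvr2a and Acvr2b, not shown, held 1 each. Of 32851 windows of the same length in the RefSeq table, 42.2% held at least 1 such box. The Foxh1 site in its forms AATCCACA and AATACACA, also searched on both strands, was in neither window, and 0.718% and 0.895% of all windows held them. Sequence outside the windows was not searched, so these counts do not tell whether the pathway acts on either gene. GC content was 53.2% for Nodal and 42% for Tdgf1, against 78.8% for Acvr1b, 82% for Acvr2a, 72.8% for Acvr2b and 69.2% for Smad3, with a median of 52.4% over all windows. These 6 of the 9 genes had a window in the table.

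The receptors showed no difference of that size. Acvr1b, the type I receptor for Nodal and activin (ALK4), stood at 7.48, 7.36, 5.90 and 4.04 CPM in 5ar1, 5ar2, AFX6 and AF32. The FS lines were above the EpiSC lines, an order found for 26.8% of all genes, by a log2 fold change of 0.57 (SE 0.43, 95% interval -0.60 to 1.7). Acvr2a, a type II receptor, stood at 8.09, 11.3, 9.10 and 13.0 CPM, so the lines of the groups overlapped, with a log2 fold change of -0.19 (SE 0.39, 95% interval -1.25 to 0.87). Its direction was not stable: it turned to 0.17 in cells with at least 4000000 counts, and to 0.01 without 5ar1 and 0.06 without AF32. Expression from chromosome 2, where Acvr2a lies, was raised in 29 of 80 AF32 cells, and without cells of that kind the value was 0.11. Acvr2a also shares its locus with Orc4 on the opposite strand (57.2 to 76.1 CPM), and Smart-seq2 reads do not tell the strands apart. Acvr2b, the other type II receptor, stood at 47.8, 38.8, 34.7 and 34.7 CPM, and its log2 fold change was 0.31 (SE 0.22, 95% interval -0.28 to 0.90). The EpiSC lines were equal in Acvr2b (AF32 to AFX6 ratio 0.9995), while the FS lines differed 1.2-fold.

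Per kb of exon, Acvr2b was the highest receptor in every line, at 12.2, 9.89, 8.84 and 8.84 CPM per kb, against 1.4 to 2.3 for Acvr2a and 0.915 to 1.7 for Acvr1b. The order of Acvr1b and Acvr2a differed between lines. Acvr2b had at least 10 CPM in 70 of 90, 68 of 90, 32 of 66 and 50 of 80 cells, whereas Acvr1b did in 26, 27, 12 and 11 of the same cells. The median cell of Acvr1b was at 0.175 CPM in 5ar1 and at 0 in the other 3 lines, so most cells of each line were below 10 CPM for the type I receptor.

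Smad2 and Smad3, which carry the signal to the nucleus, had estimates of small size and opposite sign. Smad2 stood at 54.4, 47.0, 40.9 and 38.5 CPM, with the FS lines higher by a log2 fold change of 0.35 (SE 0.20, 95% interval -0.21 to 0.90). Smad3 stood at 18.1, 14.2, 18.9 and 24.2 CPM, with the FS lines lower by 0.42 on the log2 scale (log2 fold change -0.42, SE 0.29, 95% interval -1.21 to 0.37). The adjusted p was 0.525 for Smad2 and 0.602 for Smad3 in edgeR. Per kb Smad2 exceeded Smad3 in all 4 lines, by 6.2 against 3.3 CPM per kb in 5ar1 and by only 4.38 against 4.37 in AF32. Smad2 was at or above 10 CPM in 71 of 90, 72 of 90, 38 of 66 and 42 of 80 cells, and Smad3 in 33, 31, 20 and 26 of them. Both were in the same cell at that level in 28 of 90, 24 of 90, 15 of 66 and 15 of 80 cells.

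Foxh1, the DNA-binding partner of Smad2 and Smad3, was found in most cells of every line, and in more cells of each FS line than any other of the 9. It stood at 209, 218, 267 and 142 CPM in 5ar1, 5ar2, AFX6 and AF32, and 88 of 90, 89 of 90, 63 of 66 and 71 of 80 cells had at least 10 CPM. The FS lines lay between the EpiSC lines, and the log2 fold change of 0.05 (SE 0.36, 95% interval -0.93 to 1.03) turned to -0.36 without AF32. Expression from chromosome 15, where Foxh1 and Acvr1b lie, was raised in 11 of 90 cells of 5ar2 and 8 of 66 of AFX6, and without these cells the values were 0.11 and 0.62. AFX6 held 1.9 times the Foxh1 of AF32, in the direction opposite to Nodal and Tdgf1, which were 1.9 and 1.7 times higher in AF32. Of all genes that reached 4 CPM in AFX6 or AF32, 16.3% were at least 1.5 times higher in AFX6 and 25.8% in AF32. With 1 line for each EpiSC medium these folds have no replicate check, and line cannot be told apart from medium. AFX6 also held only 0.29% of the mean level of Y-linked genes in the other lines. Per kb Foxh1 was above Tdgf1 in the FS lines (153 and 160 against 10.4 and 14.0 CPM per kb) and below it in the EpiSC lines (196 and 104 against 320 and 533).

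Smad7, the inhibitory Smad, stood at 10.3 and 6.9 CPM in 5ar1 and 5ar2, and at 16.3 and 21.5 CPM in AFX6 and AF32. Both FS lines were lower, by a log2 fold change of -1.14 (SE 0.36, 95% interval -2.11 to -0.17), with an adjusted p of 0.248 in edgeR and 0.0302 in DESeq2. One AFX6 cell at 442 CPM held 30% of the Smad7 counts of that line, and without it AFX6 stood at 11.5 CPM, close to 5ar1. The log2 fold change was then -0.94 in edgeR and -0.97 in DESeq2, and the adjusted p in DESeq2 became 0.212, so the call of DESeq2 rested on this cell. In AF32 no cell stood apart in this way, and 42 of 80 cells had at least 10 CPM against 27 of 90, 19 of 90 and 24 of 66 in 5ar1, 5ar2 and AFX6.

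**Figure D2:**
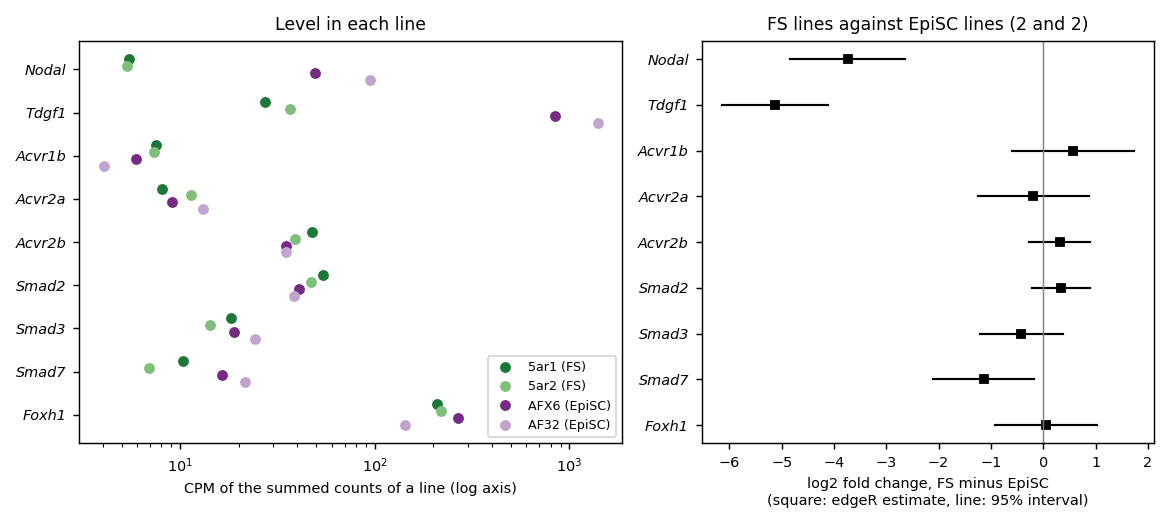
Left, CPM of the summed counts of each line on a log axis for the 9 genes (points: 5ar1, 5ar2, AFX6 and AF32). Right, log2 fold change of FS against EpiSC lines from edgeR, with the 95% interval as a line. The intervals of Nodal, Tdgf1 and Smad7 lie below 0 and those of the other 6 genes include 0.

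The number of pathway components that met in 1 cell at 10 CPM or more was also counted. A type II receptor, Smad2 or Smad3, and Foxh1 were together in 66 of 90 and 68 of 90 cells of the FS lines, in 27 of 66 AFX6 cells and in 38 of 80 AF32 cells, that is 73.3%, 75.6%, 40.9% and 47.5%. Ligand and co-receptor showed the reverse order: Nodal and Tdgf1 were together in 9 of 90, 7 of 90, 42 of 66 and 61 of 80 cells. From the share of cells with each gene, 5.0, 6.8, 42 and 60.2 cells would hold both if the genes were unrelated. Detection per cell differed between the lines, with fewer detected genes in EpiSCs, and the part of that in the first set of shares was not tested.

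Within a line, the 9 genes showed little covariation from cell to cell by Spearman rho. Over the 36 pairs of genes, Spearman rho between the cells of a line spanned -0.282 to 0.276 in 5ar1, -0.208 to 0.241 in 5ar2, -0.142 to 0.345 in AFX6 and -0.147 to 0.210 in AF32, with medians of 0.033, 0.007, 0.050 and 0.043. The highest value, 0.345 for Tdgf1 and Smad3 in AFX6, had the opposite sign in AF32, at -0.147. Of the 36 pairs, 8 had the same sign in all 4 lines, with Smad7 and Acvr1b the highest of them by the mean, at 0.134. Nodal and Tdgf1, which differed between the groups in the same direction, had rho of 0.159, -0.026, -0.010 and 0.149 in 5ar1, 5ar2, AFX6 and AF32. On log2(CPM + 1) the Pearson r of this pair was 0.279, 0.094, 0.066 and 0.381. The AF32 value includes 1 cell at 2.8 CPM of Tdgf1 that held no Nodal. Over all pairs Pearson r lay above rho for some and below it for others. Its highest value was 0.451 for Foxh1 and Tdgf1 in AF32, where rho was 0.113 and the same cell had 0.255 CPM of Foxh1. All these are descriptions over cells of 1 culture, which share their library preparation.

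**Figure D3:**
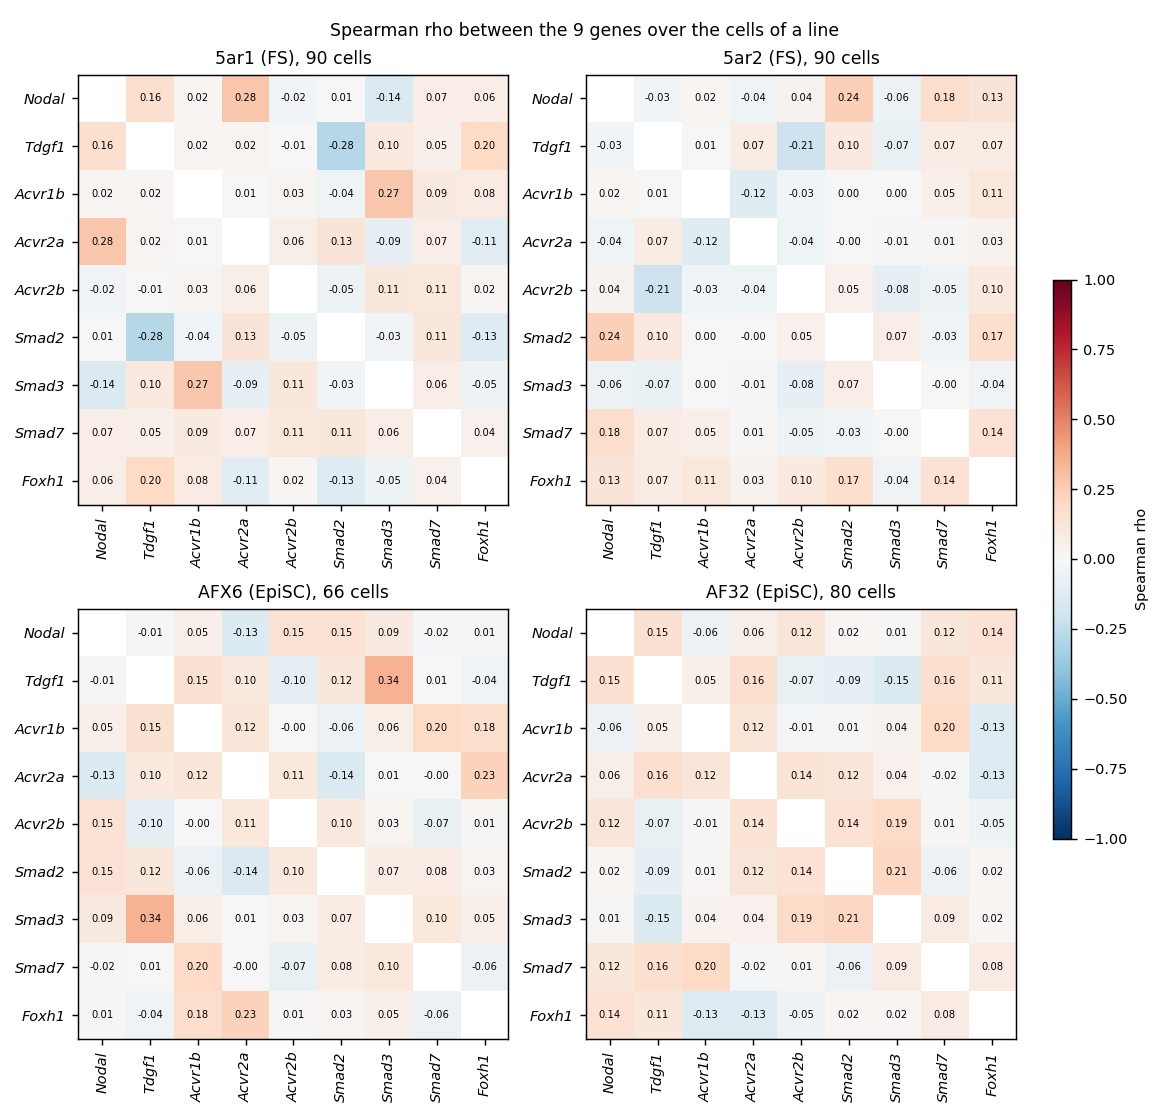
Spearman rho between each pair of the 9 genes over the cells of 1 line, in colour from -1 to 1 and printed in each square, for 5ar1, 5ar2, AFX6 and AF32. Most squares are near 0, and the highest, Tdgf1 with Smad3 in AFX6, is 0.345.

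The gene most like each of the 9 was looked for among the other genes whose mean reached 10 CPM in every line, 7647 in number (7646 where the gene itself was among them), by the mean of rho over the 4 lines. For 8 of the 9 the highest mean was weak. It was 0.236 for Nodal (Haus6, followed by Trmt6 and Pdlim1), 0.242 for Acvr1b (Gpr107, then Stk11 and Acbd3) and 0.226 for Acvr2a (Puf60, then Dmd and Nup93). It was 0.276 for Acvr2b (Pcbp1, then Cdc34 and Trim28), 0.220 for Smad2 (Paxip1, then Wdr48 and Fam168a), 0.235 for Smad3 (Ahcyl2, then Tcf7l2 and Lpp) and 0.263 for Smad7 (Slc37a4, then Haus6 and Otulin). For Tdgf1, Car2 had 0.291 and Fancl 0.289. In sparse counts values of this size are no finding.

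Foxh1 differed from the rest by its neighbour Kifc2, which encodes a kinesin. Their rho was 0.810, 0.860, 0.787 and 0.863 in 5ar1, 5ar2, AFX6 and AF32, a mean of 0.830, while the next genes, Gm15459 and Hmga1b, had 0.253 and 0.244. Foxh1 (chr15:76668225-76669948, minus strand) and Kifc2 (chr15:76659858-76668196, plus strand) end toward each other with 28 bases between them in GENCODE M21. Kifc2 was 1.9 times higher in AFX6 than in AF32, as was Foxh1. Reads from either gene that run past its end cannot be assigned by strand in this protocol, and how many of them entered the counts was not tested.

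**Figure D4:**
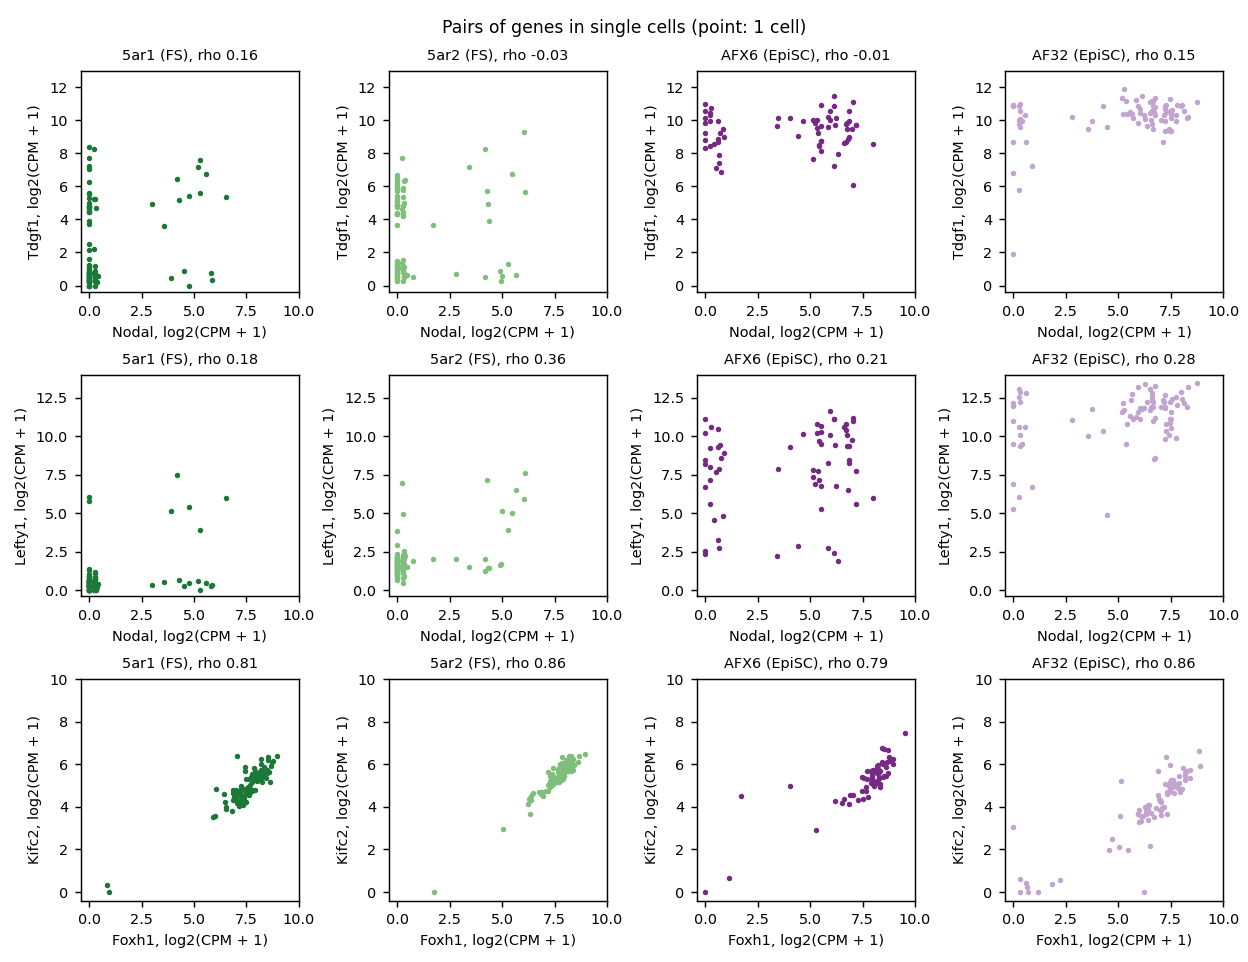
Level of gene pairs in single cells as log2(CPM + 1) on both axes, 1 panel per line: Nodal with Tdgf1 (top), Nodal with Lefty1 (middle) and Foxh1 with Kifc2 (bottom); each point is 1 cell. Foxh1 and Kifc2 fall along a line in each panel (rho 0.787 to 0.863), whereas Nodal and Tdgf1 do not (rho -0.026 to 0.159).

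To place these genes in their pathway, a list of 57 ligands, receptors, mediators, inhibitors and targets of Nodal and activin was read from the same fit, of which 52 were in the table and tested. Leaving out the 9, 43 remained, with 0 called, 1 higher and 9 lower in FS cells at an unadjusted p under 0.05, beside 9.06% and 7.02% of all genes. Their median log2 fold change was -0.47, against -0.01 for all genes tested. Some genes stand under more than one role.

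Of 16 tested targets of the pathway, 10 were lower and 1 higher in FS cells at an unadjusted p under 0.05, beside 7.02% lower and 9.06% higher of all genes. Of 19 inhibitors 5 were lower and 0 higher, and all 5 are also among the 10 targets, so the counts are not separate. Nodal, Tdgf1 and Smad7 make up 3 of the 10. Of the 6 receptors 0 passed that limit. Lefty1, a feedback inhibitor of Nodal, stood at 4.89, 10.7, 687 and 3818 CPM in 5ar1, 5ar2, AFX6 and AF32, a log2 fold change of -8.16, although the EpiSC lines themselves differed 5.56-fold. The share of 0.290% given above for Y-linked genes would amount to 4.36 CPM of Lefty1 in either FS line, close to the level of 5ar1, and its part in these values and in the fold change was not tested. Lefty2 stood at 0.288, 0.343, 1.4 and 43.5 CPM, and the mesendoderm gene T at 0.144, 0.179, 0.382 and 39.1. Few AF32 cells carried either gene. Lefty2 had at least 10 CPM in 12 of 80 AF32 cells and its median cell was at 0, while T did in 2 of 80, and 1 cell at 2369 CPM held 99.1% of its counts. Without that cell, left out after seeing the data, T in AF32 stood at 0.357 CPM. The pluripotency factor Nanog stood at 28.5, 33.5, 159 and 400 CPM. The inhibitors Skil (44.4, 30.6, 77.4 and 75.5 CPM) and Pmepa1 (3.0, 2.8, 5.8 and 25.4 CPM) showed the same order with smaller gaps. The log2 fold changes were -3.17 for Nanog, -1.03 for Skil and -2.42 for Pmepa1. Several sizes rested on AF32: without that line the values were -6.49 for Lefty1, -2.17 for Lefty2 (-6.14 with it), -1.27 for T (-6.91 with it), -2.39 for Nanog and -1.04 for Pmepa1.

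Other ligands and mediators did not all go the same way. Inhba, which encodes the activin A subunit, was lower in the FS lines, at 0.866 and 0.223 CPM against 2.5 and 6.2 in AFX6 and AF32. Gdf3, a related ligand, was at 14.1 and 52.2 CPM in the FS lines against 0.204 and 8.02 in AFX6 and AF32. Eomes, a target that also acts with Smad2 and Smad3 at mesendoderm genes, was the 1 gene listed as higher, at 61.3 and 48.2 CPM in the FS lines against 6.6 and 5.8, a log2 fold change of 3.13. Smad4, the shared partner of Smad2 and Smad3, was at 31.4, 26.1, 25.8 and 34.3 CPM, and the related type I receptor Tgfbr1 at 18.9, 9.43, 8.12 and 21.7, with the groups overlapping for both. Cfc1, the other EGF-CFC co-receptor, was at 0 in both FS lines and at 0.373 and 0.514 CPM in AFX6 and AF32, and is named here after its values were seen.

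**Figure D5:**
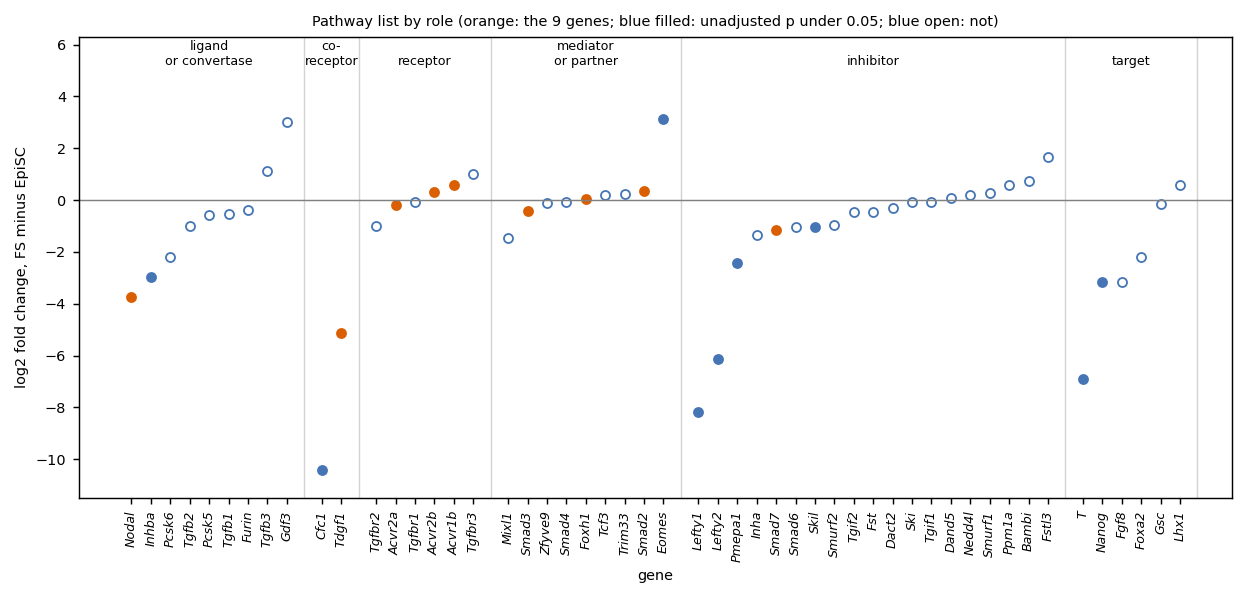
Log2 fold change, FS minus EpiSC, from edgeR for 51 of the 52 tested genes of the pathway list, grouped by role on the horizontal axis. A gene with several roles is drawn once, under the first of them, so the target group does not hold all tested targets. Orange points are the 9 genes, and filled blue points had an unadjusted p under 0.05. Lefty1, Lefty2, T, Nodal and Tdgf1 lie far below 0, Acvr1b, Acvr2a and Acvr2b lie between -0.19 and 0.57, and Eomes lies at 3.13; the lowest point, Cfc1, was at 0 in both FS lines, so its fitted value depends on the prior count.

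Between cells of a line, rho of Nodal with Lefty1 was positive in each line, at 0.183, 0.361, 0.209 and 0.279. In the FS lines these rest on low Lefty1 levels, with a median cell of 0.389 and 2.2 CPM and 7 of 90 and 10 of 90 cells at 10 CPM or more, beside the 4.36 CPM given above. With Nanog and Eomes it ranged from -0.050 to 0.168 and from -0.164 to 0.048. Lefty1 was under 10 CPM in 5ar1, so it was not among the genes searched for likeness, although its mean rho of 0.258 with Nodal exceeds that of Haus6. Tdgf1 had rho with Lefty1 of -0.115, 0.029, 0.303 and 0.159, with no common sign. Correlations of this size in sparse counts are given as a description only, and these 3 genes were chosen after part of the values were seen.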

How the data were processed

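Single cells were sorted into wells and prepared with Smart-seq2. Per the labels and the study's methods, the authors aligned reads with STAR 2.7.3a to GRCm38.p6 and tallied uniquely mapped reads on Ensembl genes with featureCounts 2.0.0, and the deposited raw table holds these counts. A further deposited table holds sctransform values, a depth-corrected score that the authors made from the counts and that was used here only as an alternative. Symbols came from GENCODE M21, which matched 31565 of 31617 identifiers. No cells had identical counts (0).

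Counts of kept cells were summed per line, filtered with filterByExpr and scaled by TMM. FS lines were compared with EpiSC lines by the quasi-likelihood test of edgeR 4.0.16 in R 4.3.3, with Benjamini-Hochberg adjusted p under 0.05. The p-values measure only the spread between these lines. In simulated data on 22606 genes, 191 of 200 changed genes were recovered with 7 false calls at a dispersion of 0.05, and 0 of 200 at the estimated 0.653. Alternatives were DESeq2 1.42.0, limma 3.58.1, other scalings, filters, depths, thinning and each line left out. Shares have exact Clopper-Pearson 95% intervals. Where a cell had a count of 0, the sampling of reads alone allows a value of up to 3 counts. Loss of mRNA before sequencing is not covered by this limit.

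The 9 genes and all lists were chosen with earlier results of these data known. Named were the 9 genes; genes of the pathway list with at least 5 CPM in a line, lines that do not overlap and a log2 fold change over 1 in size, or set by name; and the 3 genes most like each of the 9. Of the genes so named, 2 are not reported here. Of the list, Gdf1, Inhbb, Acvr1c, Cer1 and Evx1 were not analysed here. Promoter sequences came from RefSeq (GRCm38.p6).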

Additional observations from a re-analysis of the deposited data

How the results depend on the processing

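No paired analysis was possible because the numbers in the labels name single cells, while the lines compared share no number. The count of genes called was 0 in edgeR, 2927 in DESeq2 (1398 higher and 1529 lower) and 1 in limma, and stayed at 0 under each other edgeR setting, including each line left out (0 to 0). DESeq2 moved Nodal (-3.76, adjusted p 1.72e-15), Tdgf1 (-5.15, 6.02e-37) and Smad7 (-1.17, 0.0302) past the threshold, though Smad7 not without its highest AFX6 cell (-0.97, 0.212; chosen after seeing the data), and limma did so for Tdgf1 (-5.06, 0.0457). The other settings kept the direction of Nodal (log2 fold change -4.12 to -3.22) and Tdgf1 (-5.43 to -4.74), with adjusted p in edgeR of 0.178 to 0.751. With a line left out, the lone line of a group is assumed to vary like the other group.

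Acvr2a turned to 0.17 in cells with at least 4000000 counts, to 0.11 without cells with raised chromosome 2, and ranged from -0.46 to 0.06 with a line left out. Foxh1 turned to -0.01 in cells with at least 4000000 counts and ranged from -0.36 to 0.60 with a line left out. With a line left out Tgfbr1 ranged from -0.67 to 0.77 (0.34 without 5ar2), and Smad4 from -0.24 to 0.12 (0.05 without 5ar2). The causes were not tested.

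Shares depended on the level that counts as expressed. With any count they were 34.4%, 46.7%, 89.4% and 92.5% for Nodal in 5ar1, 5ar2, AFX6 and AF32. At 1 CPM they were 16.7%, 17.8%, 65.2% and 77.5%, and at 10 CPM, a limit chosen after seeing the data, 15.6%, 14.4%, 63.6% and 76.2%. Thinned to 3000000 counts, Nodal in 5ar2 was at 35.6%. For Tdgf1 in 5ar1 and 5ar2 they were 46.7% and 67.8% at 1 CPM and 35.6% and 52.2% at 10 CPM. For Nodal and Tdgf1 the Pearson r of log2 values moved to 0.279 in 5ar1, 0.094 in 5ar2 and 0.381 in AF32.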
